A study of Mus musculus with 8 samples.

Results

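Cytochrome P450 genes of the numbered families were followed in sorted mouse intestinal stem cells of 2 genotypes. Members were all array probes whose accession led to a symbol of Cyp followed by a number, without the aryl hydrocarbon receptor targets Cyp1a1, Cyp1a2 and Cyp1b1. The array named 95 such genes. Of these, 61 had a probe that cleared background well on 4 or more of the 8 arrays, and the brightest such probe stood for each. They stood among 25403 measured features. The study profiled Lgr5-high intestinal stem cells, the dividing cells at the crypt base, from 4 Control and 4 Irf2AhcKO samples on 1-colour Agilent arrays. Every sample came from mice with floxed Irf2 alleles (Irf2fl/fl) and the Lgr5-EGFP-Ires-CreERT2 allele, which marks the sorted cells and itself encodes a tamoxifen-dependent Cre. All had received β-naphthoflavone on 5 consecutive days, and the cells were taken 1 month later. The Irf2AhcKO mice carried Ah-Cre in addition, a Cre placed under a Cyp1a1 promoter that β-naphthoflavone switches on and that is not limited to stem cells. Irf2 is a transcription factor that restrains interferon-driven genes, and the comparison asks what its deletion does to gene expression in these cells. No age is given in the labels.

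The labels and the Irf2 signal did not fully match. The Irf2 probe gave 0.64 ± 0.26 (SD, n = 4) in Control and 0.91 ± 0.23 (SD, n = 4) on the arrays labelled Irf2AhcKO, a log2 difference of 0.27 with an SE of 0.12 (limma adjusted p = 0.429). The place of the probe relative to the deleted part was not analysed here, so this signal does not check the deletion. The scanner data of control replicates 3 and 4 carry Ah-Cre in their names, and the groups below follow the sample labels. The design text speaks of 4 independent mice and also of 2 biological replicates, so the p-values reflect sample-to-sample spread, which may be technical in part. Markers of sex, given at the end, set replicate 4 of each group apart from its other replicates. Lgr5, which defines the sort, was well above background on all 8 arrays with a log2 difference of -0.29 (SE 0.16, adjusted p = 0.502). Of 10 stem cell markers 9 were measured, and their mean signal lay between 2.80 and 3.04 in Control and between 2.72 and 2.98 in Irf2AhcKO. Their median difference was -0.11, with 6 negative and 3 positive. At an unadjusted p below 0.05, 1 of the 9 was lower (11.1%, all features 5.74%) and none was higher. This was Gkn3 at -0.64 (SE 0.12, limma adjusted p = 0.163). Between 61.4% and 69.8% of spots on an array were well above background. Precision is limited by the number of arrays, 4 in each group. Slide 1 held replicates 1 and 2 of both groups and slide 2 held replicates 3 and 4.

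Cytochrome P450 enzymes are haem proteins that insert an oxygen atom into lipophilic substrates. Those in the endoplasmic reticulum draw electrons from P450 reductase (Por) and cytochrome b5, and those in mitochondria draw them from ferredoxin (Fdx1) and its reductase. The Cyp2 and Cyp3 families oxidise drugs, dietary compounds and arachidonic acid, the Cyp4 family hydroxylates the ends of fatty acids and eicosanoids, and the remaining families make or break down sterols, bile acids, steroid hormones, retinoids and vitamin D. In the intestine these enzymes are best known from mature absorptive enterocytes, where they take part in the first-pass metabolism of what is eaten. All signals below are log2 processed intensities after subtraction of the 75th percentile of the array, so 0 is the level of that percentile. Levels of different probes are not comparable. A difference is always Irf2AhcKO minus Control.

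The larger part of the named genes gave a signal. Of the 61 genes, 50 were well above background on all 8 arrays and 11 on 4 to 7 arrays. Cyp2r1 was counted here with the vitamin D genes and not with the Cyp2 family. By role, 31 of 45 named genes of the Cyp2 family were measured, 4 of 8 of Cyp3 and 15 of 22 of Cyp4. Also measured were 4 of 7 sterol and bile acid genes, 3 of 6 steroid hormone genes and 3 of 6 retinoid and vitamin D genes. The orphan P450 Cyp20a1 completed the set. Of the 34 genes not measured, 23 were well above background on no array and 11 on 1 to 3 arrays. Among the 23 were the bile acid genes Cyp7a1 (the rate-limiting enzyme of bile acid synthesis), Cyp7b1 and Cyp8b1, the adrenal genes Cyp11a1 and Cyp11b1, and Cyp24a1 and Cyp26a1, which clear vitamin D and retinoic acid. The excluded genes Cyp1a1, Cyp1a2 and Cyp1b1 were likewise well above background on no array. At the border of the rule, Cyp27b1, Cyp2a22, Cyp2d9 and Cyp3a11 passed on exactly 4 arrays, with mean signals of -4.52, -4.60, -4.50 and -4.03. Cyp11b2, Cyp2b9, Cyp2c50 and Cyp2d34 missed it with 3 arrays, at mean signals of -4.81, -4.25, -4.35 and -4.47.

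**Figure D1:**
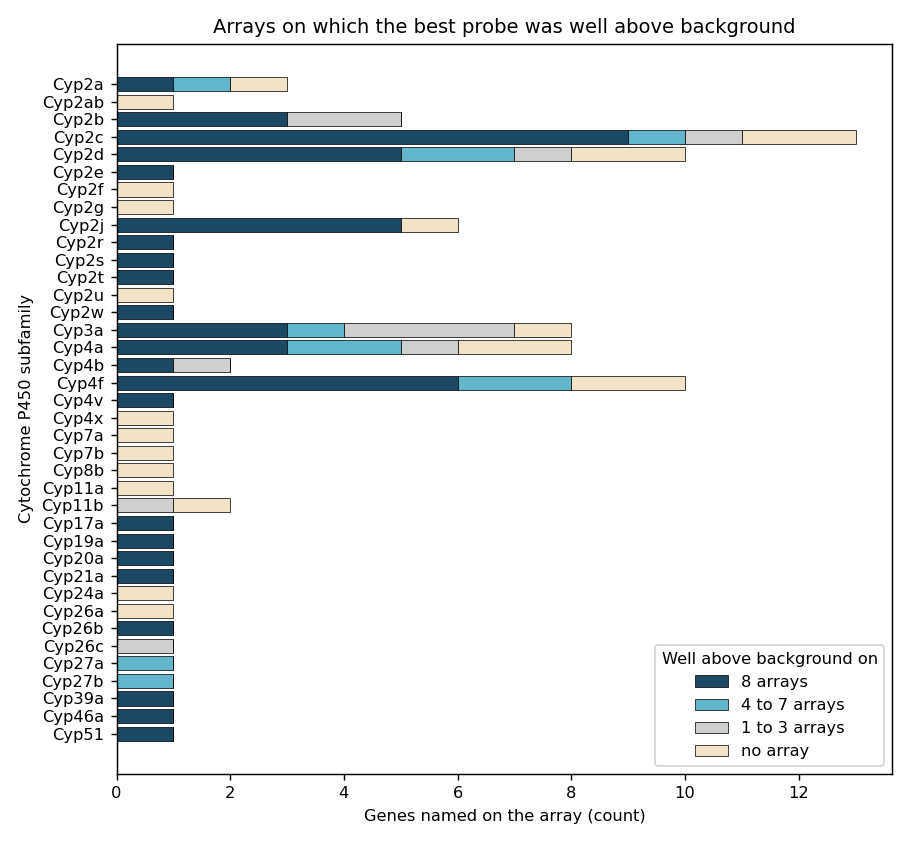
Number of P450 genes in each subfamily named on the array, by the number of arrays on which the gene's best probe was well above background. The best probe is the one well above background on the most arrays. Each bar counts genes; of 95 named genes, 50 were well above background on all 8 arrays and 11 on 4 to 7.

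No P450 gene passed an adjusted p of 0.05 between the groups, against 25 of all 25403 features (0.0984%). At an unadjusted p below 0.05, 16 of the 61 genes were lower in Irf2AhcKO (26.2%) and 2 were higher (3.28%). Over all features the shares were 5.74% lower and 5.98% higher, and over measured features with a symbol 6.90% lower and 4.91% higher. In the authors' deposited table, which scales the arrays otherwise, the split of the 61 genes was 14 lower (all features 4.53%) and 4 higher. There 3036 of all 25403 features had an unadjusted p below 0.05 in either direction. Without the slide term 8 were lower (all features 2.47%). The slides taken alone gave 7 and 8 lower genes, against 4.40% and 2.32% of all features. Without Control replicate 2 or 3 only 1 gene was higher, and without Control replicate 4 or Irf2AhcKO replicate 3 there were 4. In this order 2483, 2294, 4097 and 3117 of all 25403 features had such a p in either direction. The lower shares among all features were then 4.59%, 4.44%, 7.10% and 5.64%. The 4 arrays of one group lay wholly below the 4 of the other for 7 genes, in each case with Irf2AhcKO below, against 2.11% of all features; none lay wholly above, against 1.74% (either direction 3.85%). Differences were negative for 39 of the 61 genes (all features 50.5%) and negative within both slides for 32 (all features 31.7%). The median difference was -0.10, with -0.09 on slide 1 and -0.14 on slide 2. Without Control replicate 2 it was -0.21 and without Irf2AhcKO replicate 1 it was -0.18. Over all features it was -0.0024. Of the 50 genes well above background on every array, 14 were lower and 2 higher at an unadjusted p below 0.05, against 5.81% and 5.89% of all features so measured. With normexp background correction 54 of the 61 differences were smaller in size and 6 turned in sign. The normexp value is given beside many of the genes named. The samples are bulk RNA of sorted cells, in which fewer cells of a type and less RNA per cell cannot be told apart.

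**Figure D2:**
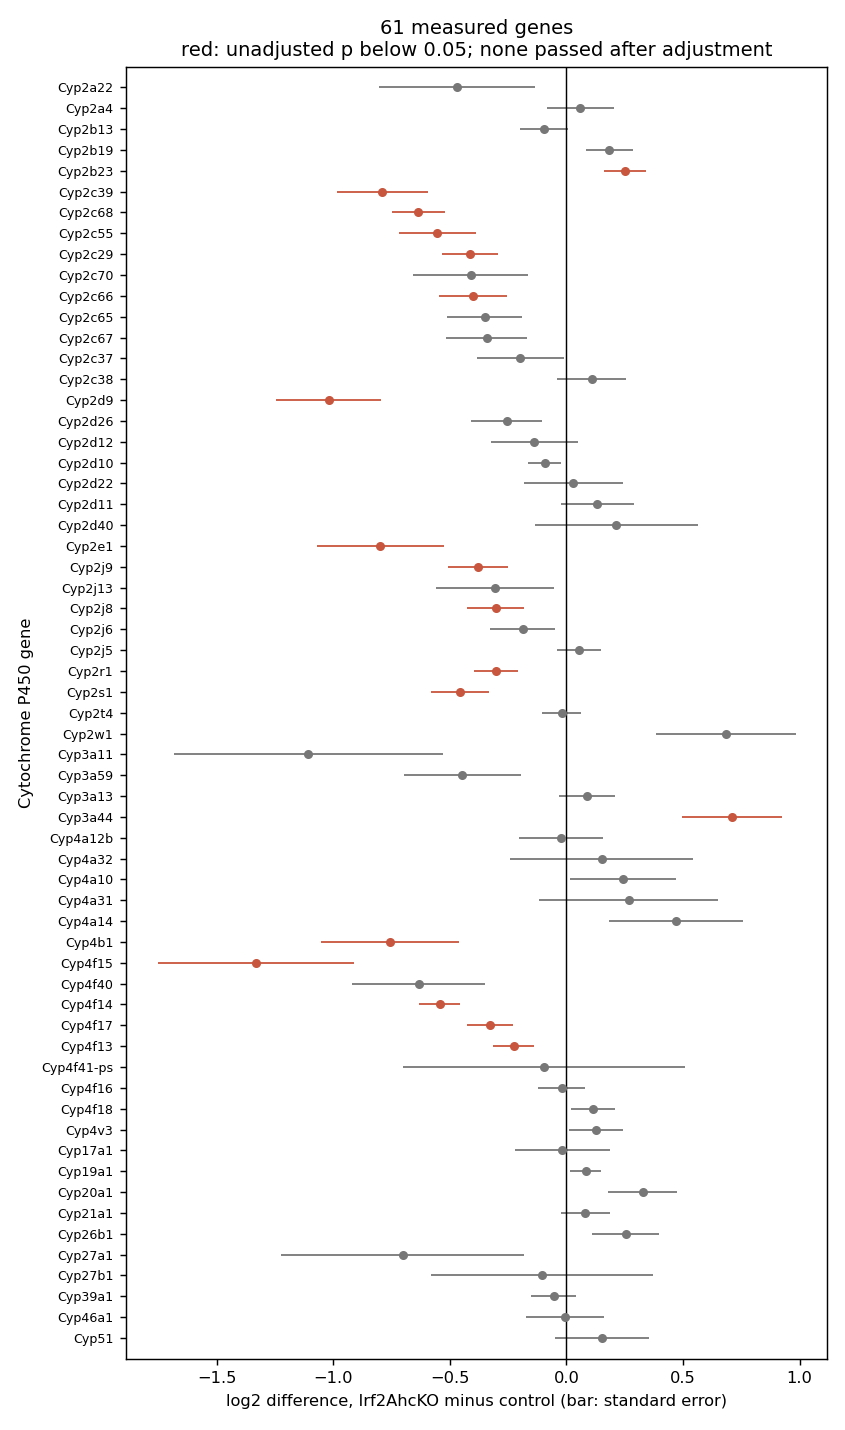
Log2 difference, Irf2AhcKO minus Control, of each of the 61 P450 genes by subfamily, with its SE from limma (4 against 4 arrays, slide as a term). The 16 genes lower and the 2 genes higher at an unadjusted p below 0.05 are in red. Of the lower genes 9 lie in Cyp2c or Cyp4f, and none of the 61 passed the adjusted threshold.

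The Cyp2c subfamily held 5 of the 16 lower genes and 5 of the 7 without overlap. Over all features 5.74% were lower at an unadjusted p below 0.05 and 2.11% were lower without overlap. The Cyp2c enzymes oxidise drugs and turn arachidonic acid into epoxides. Of 13 named genes 10 were measured, 9 of them on all 8 arrays. A negative difference on both slides was found for 9 of the 10 (all features 31.7%), and 8 of the 10 were negative with normexp. The median difference was -0.41 (slide 1 -0.33, slide 2 -0.44), and -0.26 with normexp correction. The mean signal over the 10 genes was -1.16, -1.33, -1.14 and -1.11 on Control replicates 1 to 4 and -1.60, -1.58, -1.60 and -1.55 on those of Irf2AhcKO. Every Control array thus lay above every Irf2AhcKO array. The genes lie side by side on chromosome 19 and are close in sequence, so a probe may also have read a neighbour's transcript, and the members are not independent. In chromosomal order the measured genes ran Cyp2c55, Cyp2c65, Cyp2c66, Cyp2c29, Cyp2c39, Cyp2c38, Cyp2c67, Cyp2c68, Cyp2c37 and Cyp2c70. Cyp2c38, in the middle of this row, was the only one with a positive difference, at 0.11 (0.37 on slide 1 and -0.15 on slide 2).

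Cyp2c68 had the smallest p of the subfamily. Its signal was -1.85, -2.02, -1.45 and -1.61 in Control and -2.25, -2.57, -2.33 and -2.32 in Irf2AhcKO. All Control arrays were above all Irf2AhcKO arrays. The means were -1.73 ± 0.25 and -2.37 ± 0.14 (SD, n = 4 each), a log2 difference of -0.63 with an SE of 0.11 (limma adjusted p = 0.135), or -0.32 with normexp correction. Cyp2c39, which can hydroxylate retinoic acid, gave -2.01, -2.19, -1.56 and -2.33 in Control against -3.26, -2.80, -2.68 and -2.50 in Irf2AhcKO. These groups did not overlap either, and the difference was -0.79 (SE 0.19, adjusted p = 0.251; -0.32 with normexp). Cyp2c29, an epoxygenase abundant in liver, read -2.09, -2.35, -2.48 and -2.49 in Control and -2.49, -2.74, -2.70 and -3.12 in Irf2AhcKO. Its groups met at -2.49 without crossing, with a difference of -0.41 (SE 0.12, adjusted p = 0.318; -0.15 with normexp).

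Cyp2c65 and Cyp2c66 are neighbours known from the intestinal tract, and both of their probes lay above the 75th percentile of every array. Cyp2c66 gave 1.65, 1.27, 1.40 and 1.85 in Control and 1.25, 1.18, 1.18 and 0.94 in Irf2AhcKO, a difference of -0.40 (SE 0.15, adjusted p = 0.376). Cyp2c65 gave 1.81, 1.54, 1.44 and 2.17 in Control against 1.42, 1.39, 1.37 and 1.36 in Irf2AhcKO, a difference of -0.35 (SE 0.16, adjusted p = 0.449). In both genes the lowest Control array stood just above the highest Irf2AhcKO array. The spread of Cyp2c65 was 0.33 (SD) in Control and 0.03 in Irf2AhcKO. Cyp2c55, which hydroxylates arachidonic acid and is known from the colon, overlapped between groups. Its signal was -1.71, -2.21, -0.99 and -1.06 in Control and -2.83, -2.40, -1.27 and -1.67 in Irf2AhcKO, with a difference of -0.55 (SE 0.16, adjusted p = 0.321; -0.29 with normexp). Within each slide its Irf2AhcKO arrays lay below its Control arrays, and slide 2 was higher than slide 1 by 1.04 (adjusted p = 0.00353).

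Cyp2c70, which makes the muricholic bile acids of mice, had a difference of -0.41 (SE 0.25, adjusted p = 0.526; -0.13 with normexp). Its Irf2AhcKO arrays ranged from -3.11 to -1.98 and enclosed 3 of the 4 Control values. Cyp2c67 was read by 2 probes that gave -0.34 and -0.37 (the first -0.23 with normexp). Cyp2c37, measured on 6 arrays, had a difference of -0.20, and 0.026 with normexp.

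The proximal promoters of Cyp2c65, Cyp2c66 and Cyp2c68 are shown because their groups did not overlap and the windows hold a match to a motif searched, and that of Cyp4f14 because it had the smallest p of all P450 genes. The sequences are the 250 bases before the annotated start, from RefSeq on GRCm38.p6, written 5′ to 3′ on the gene's strand. Of the 61 genes 50 were in the promoter table, with 58 windows between them. Cyp2c29 and Cyp2c39 had no overlap between groups either; their windows were not among those with a match and are not shown. Capitals mark matches to any of 3 motifs, searched on both strands: the interferon response element (GAAA, any 2 bases, GAAA), the aryl hydrocarbon receptor core element GCGTG and the HNF4 direct repeat CAAAGTCCA. The Cyp2c65 window lies at chr19:39060756-39061005 on the plus strand, that of Cyp2c66 at chr19:39113648-39113897 on the plus strand, that of Cyp2c68 at chr19:39741102-39741351 on the minus strand and that of Cyp4f14, the first of 4 annotated starts, at chr17:32917357-32917606 on the minus strand.
Cyp2c65: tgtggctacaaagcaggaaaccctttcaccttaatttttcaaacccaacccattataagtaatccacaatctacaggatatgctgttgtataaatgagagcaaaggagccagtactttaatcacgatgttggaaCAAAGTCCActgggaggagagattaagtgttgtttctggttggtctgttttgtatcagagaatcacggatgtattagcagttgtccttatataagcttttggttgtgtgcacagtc
Cyp2c66: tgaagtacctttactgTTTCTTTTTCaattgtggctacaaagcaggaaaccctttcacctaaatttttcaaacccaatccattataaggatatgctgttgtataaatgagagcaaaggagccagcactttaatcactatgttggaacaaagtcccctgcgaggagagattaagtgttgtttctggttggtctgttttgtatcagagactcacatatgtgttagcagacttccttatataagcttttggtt
Cyp2c68: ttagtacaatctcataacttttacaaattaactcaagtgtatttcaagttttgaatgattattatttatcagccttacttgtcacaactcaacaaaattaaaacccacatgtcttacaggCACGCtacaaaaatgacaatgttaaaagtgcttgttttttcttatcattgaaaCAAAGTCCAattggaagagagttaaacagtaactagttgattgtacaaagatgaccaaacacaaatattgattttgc
Cyp4f14: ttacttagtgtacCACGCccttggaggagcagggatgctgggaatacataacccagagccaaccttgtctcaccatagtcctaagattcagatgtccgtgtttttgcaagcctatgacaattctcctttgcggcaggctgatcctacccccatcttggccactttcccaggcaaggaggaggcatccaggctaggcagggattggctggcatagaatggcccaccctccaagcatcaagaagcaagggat

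CAAAGTCCA stood 116 to 108 bases before the start in Cyp2c65 and 77 to 69 bases before it in Cyp2c68. It was present in 5 of the 58 P450 windows (8.62%), those of Cyp2c65, Cyp2c67, Cyp2c68, Cyp2c70 and Cyp3a11, and in 0.384% of all 32851 windows of the table. Within Cyp2c, 4 of 11 windows held it (36.4%), and of the 19 windows of the lower genes 1 did. These promoters come from one gene cluster and share sequence by descent, so the windows are not independent, and the motif was chosen with them in view. The interferon response element was found in 3 windows (5.17%; all windows 2.98%), those of Cyp2c66, Cyp4a32 and Cyp4v3. In Cyp2c66 it lies on the reverse strand, 234 to 225 bases before the start. GCGTG was found in 11 of the 58 windows, against 28.2% of all windows. A match describes letters and is not evidence of a bound site.

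Of the 31 measured genes of the Cyp2 family 10 were lower (32.3%) and 1 was higher (3.23%) at an unadjusted p below 0.05. Over all features the shares were 5.74% and 5.98%. Outside Cyp2c lay 5 of these lower genes and the higher gene. The counts leave out Cyp2r1, which was also lower and is given below with the vitamin D genes. Cyp2e1, which oxidises ethanol and other small molecules, gave 3.49, 2.48, 3.25 and 3.12 in Control and 2.50, 2.46, 2.48 and 1.69 in Irf2AhcKO. Control replicate 2 lay within the Irf2AhcKO range, and the other 3 Control arrays lay above it. The difference was -0.80 (SE 0.27, adjusted p = 0.361), with -0.75 under normexp correction and -0.99 from a second probe. It was -0.50 on slide 1 and -1.10 on slide 2. Cyp2s1, an epithelial P450 expressed mainly outside the liver, read 0.50, 0.22, 0.54 and 0.77 in Control and -0.15, 0.15, 0.23 and -0.03 in Irf2AhcKO. A single Irf2AhcKO array, at 0.23, stood marginally above the lowest Control array, at 0.22. The difference was -0.46 (SE 0.12, adjusted p = 0.29).

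Cyp2d9, a testosterone hydroxylase known from male mouse liver, had a difference of -1.02 (SE 0.23, adjusted p = 0.204). It was well above background on 3 Control arrays and 1 Irf2AhcKO array, and normexp correction gave -0.10. Its signals lay between -4.58 and -3.66 in Control and between -5.74 and -4.31 in Irf2AhcKO, so this value describes a probe at the edge of detection. The other 6 measured Cyp2d genes had differences between -0.26 (Cyp2d26) and 0.21 (Cyp2d40, -0.012 with normexp). In the arachidonic acid epoxygenases of the Cyp2j subfamily, 2 of 5 measured genes were lower at an unadjusted p below 0.05 (all features 5.74%). The median was -0.30. Cyp2j9 had a difference of -0.38 (SE 0.13, adjusted p = 0.357; -0.16 with normexp) and Cyp2j8 one of -0.30 (SE 0.12, adjusted p = 0.416; -0.19 with normexp). Cyp2j6, the intestinal member, gave -0.19.

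Cyp2b23 was the higher gene of the family. Its signal was 1.18, 1.20, 0.91 and 1.07 in Control and 1.44, 1.62, 1.06 and 1.25 in Irf2AhcKO, a difference of 0.25 (SE 0.09, adjusted p = 0.375). On each slide both Irf2AhcKO arrays lay above both Control arrays except for replicate 3 of Irf2AhcKO, which at 1.06 was just below Control replicate 4 at 1.07. Cyp2b19, an epoxygenase of keratinocytes, had a difference of 0.18 (SE 0.10, adjusted p = 0.497). Cyp2w1, known from fetal gut and colon tumours, read -2.35, -2.56, -2.91 and -3.04 in Control and -2.24, -2.36, -1.21 and -2.32 in Irf2AhcKO. All Irf2AhcKO values were at or above the highest Control value but for Irf2AhcKO replicate 2, and replicate 3 alone stood a full unit higher than the rest. The difference was 0.68 (SE 0.30, adjusted p = 0.433; 0.20 with normexp).

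**Figure D3:**
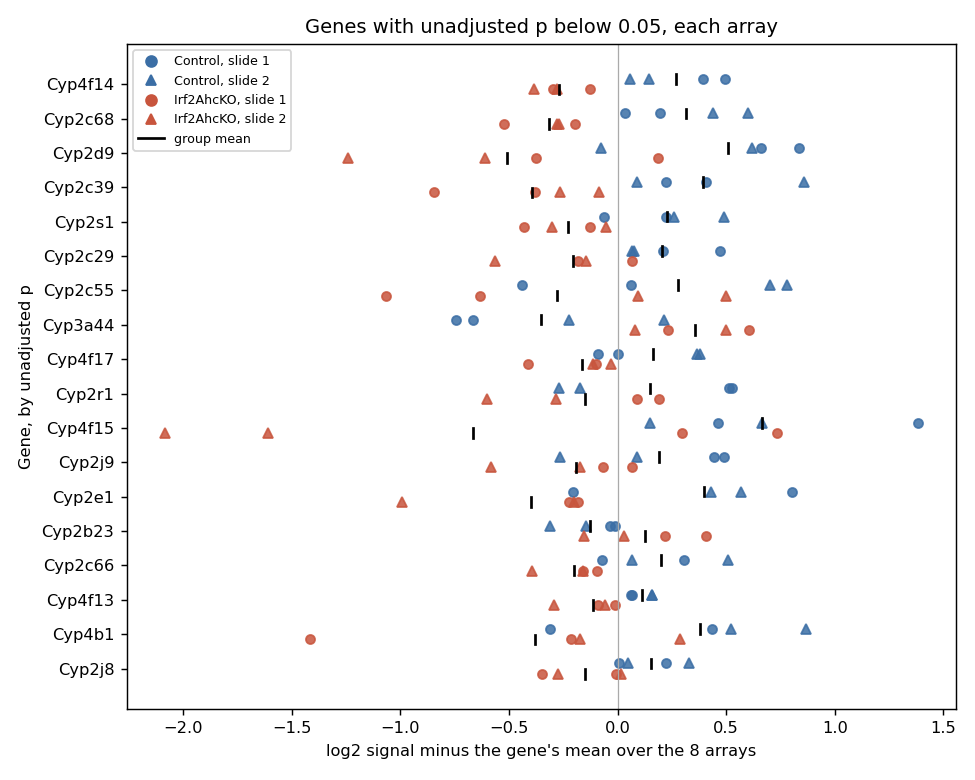
Log2 signal on each of the 8 arrays, minus the gene's own mean over them, for the 18 P450 genes with an unadjusted p below 0.05 (blue Control, red Irf2AhcKO, circles slide 1, triangles slide 2, short black lines group means). For Cyp2c68, Cyp2c39 and Cyp4f14 every Irf2AhcKO array lies below every Control array.

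In the Cyp3 family, whose enzymes handle many drugs and bile acids, 4 of 8 named genes were measured. None was lower and 1 was higher at an unadjusted p below 0.05 (all features 5.74% and 5.98%), and the median difference was -0.18. The higher gene was Cyp3a44, with -4.32, -4.40, -3.88 and -3.44 in Control and -3.42, -3.05, -3.58 and -3.16 in Irf2AhcKO. The groups overlapped, and the difference was 0.71 (SE 0.21, adjusted p = 0.328), with 1.12 on slide 1, 0.29 on slide 2 and 0.23 under normexp correction. Cyp3a11, the main drug-metabolising Cyp3a of mice and a target of the xenobiotic receptor Nr1i2, was well above background on 3 Control arrays and 1 Irf2AhcKO array. It gave -3.22, -2.81, -5.39 and -2.50 in Control and -3.61, -4.50, -5.24 and -4.99 in Irf2AhcKO, a difference of -1.11 (SE 0.58, adjusted p = 0.481; -0.37 with normexp). Control replicate 3 was lower than every other array of either group. Cyp3a13, known from the intestine, had a difference of 0.09 from its brighter probe and -0.05 from a dimmer one. Cyp3a59 had one of -0.45 (SE 0.25; -0.078 with normexp).

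At an unadjusted p below 0.05, 5 of the 15 measured Cyp4 genes were lower (33.3%, all features 5.74%) and none was higher. The Cyp4 family thus had 5 of the 16 lower genes, 4 of them in Cyp4f. Its enzymes hydroxylate fatty acids at the terminal carbon, and the Cyp4f enzymes also inactivate leukotrienes. Of the 8 Cyp4f genes measured of 10 named, 7 had a negative difference (all features 50.5%) and none was higher at that threshold. The median was -0.28 (slide 1 -0.18, slide 2 -0.29). The mean over these genes was -0.88, -1.38, -1.11 and -1.40 on the Control arrays and -1.40, -1.47, -1.68 and -1.74 on the Irf2AhcKO arrays, in that order of replicates. The highest Irf2AhcKO mean lay below the lowest Control mean only in the third decimal. Of the 5 Cyp4a genes measured of 8, none was lower or higher at that threshold. Positive differences were found for 4 of them and for 12565 of all 25403 features, and the Cyp4a median was 0.24. Whether the subfamilies differ was not tested.

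Cyp4f14 had the smallest p of the 61 genes. Its signal was -1.20, -1.30, -1.64 and -1.55 in Control and -1.82, -1.99, -2.08 and -1.97 in Irf2AhcKO. The lowest Control array was above the highest Irf2AhcKO array. The means were -1.42 ± 0.21 and -1.97 ± 0.11 (SD, n = 4 each), a log2 difference of -0.54 with an SE of 0.09 (limma adjusted p = 0.117), with -0.65 on slide 1, -0.43 on slide 2 and -0.27 under normexp correction. Its chromosome 17 neighbour Cyp4f13 gave -0.38, -0.38, -0.28 and -0.28 in Control and -0.46, -0.53, -0.50 and -0.74 in Irf2AhcKO. The groups did not overlap, at a difference of -0.23 (SE 0.09, adjusted p = 0.401). Cyp4f17, in the same cluster, had a difference of -0.33 (SE 0.10, adjusted p = 0.328; -0.21 with normexp).

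Cyp4f15, which lies between Cyp4f40 and Cyp4f14, had the largest difference in size of the 61 genes, -1.33 (SE 0.42, adjusted p = 0.336; -0.31 with normexp). It gave -1.87, -2.79, -3.10 and -2.58 in Control and -2.52, -2.95, -4.86 and -5.34 in Irf2AhcKO. The difference was -0.41 on slide 1 and -2.26 on slide 2, where neither Irf2AhcKO array was well above background. Cyp4f40 had a difference of -0.63 (SE 0.29, adjusted p = 0.444; -0.24 with normexp), Cyp4f16 one of -0.02 and the pseudogene Cyp4f41-ps one of -0.10 (Control SD 1.26). Cyp4f18, the only measured Cyp4f gene on another chromosome, had the only positive difference of the subfamily, 0.11. Cyp4b1, which bioactivates the furan toxin ipomeanol, had a difference of -0.76 (SE 0.30, adjusted p = 0.401; -0.33 with normexp).

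Cyp4a10, Cyp4a14, Cyp4a31 and Cyp4a32 are fatty acid hydroxylases of a subfamily regulated by the fatty acid receptor Ppara. Their differences were 0.24, 0.47, 0.27 and 0.15 (SE 0.23, 0.29, 0.39 and 0.39), and that of Cyp4a12b was -0.02. With normexp they were 0.14, 0.14, 0.14 and 0.051, and 0.0022 for Cyp4a12b. On slide 2 alone Cyp4a31 gave -0.22 and Cyp4a32 gave -0.35. The dimmer probe of Cyp4a31 gave -0.13, and those of Cyp4a10 gave 0.08 and 0.00. These genes belong to one subfamily, and whether a probe also read another member's transcript was not analysed. Cyp4v3, a fatty acid hydroxylase found in many tissues, had a difference of 0.13 (SE 0.11; 0.073 with normexp).

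**Figure D4:**
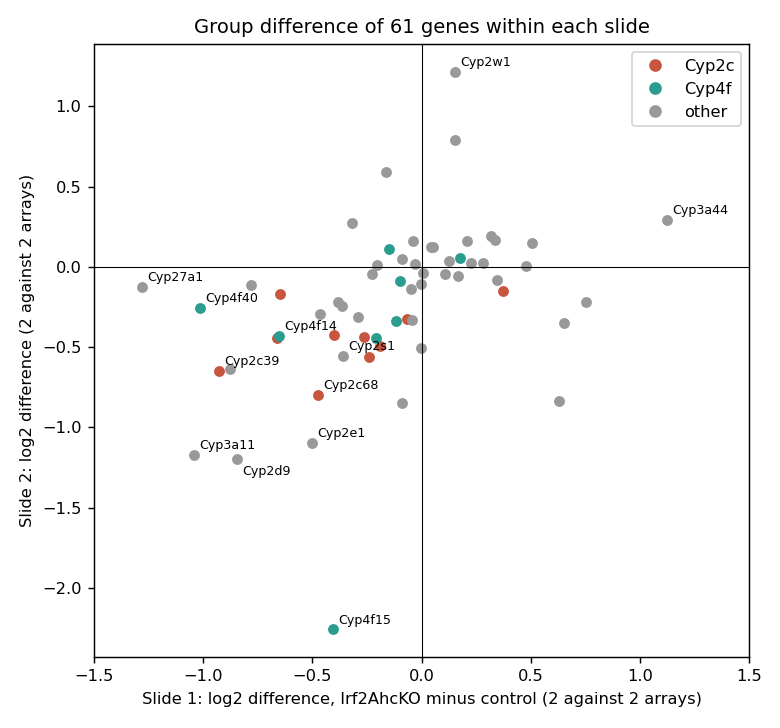
Log2 difference, Irf2AhcKO minus Control, of each of the 61 P450 genes on slide 1 (x axis) and on slide 2 (y axis), 2 arrays against 2 on each. Of the 61 genes 32 lie below 0 on both axes (all features 31.7%), among them 9 of the 10 Cyp2c genes. Cyp4f15 gave -0.41 on slide 1 and -2.26 on slide 2, and Cyp2w1 gave 0.15 and 1.21.

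None of the sterol, bile acid and steroid hormone genes was lower or higher at an unadjusted p below 0.05. Cyp51, the lanosterol demethylase of cholesterol synthesis, gave 0.15 (SE 0.20; 0.079 with normexp). Cyp39a1, which handles oxysterols on the way to bile acids, gave -0.05 (SE 0.10), and Cyp46a1, the cholesterol hydroxylase of neurons, gave -0.01 (SE 0.17). Cyp27a1, the mitochondrial sterol hydroxylase, was well above background on 5 arrays and gave -0.70 (SE 0.52; -0.07 with normexp). The steroidogenic genes gave -0.02 for Cyp17a1 (SE 0.20), 0.08 for Cyp19a1, the aromatase (SE 0.07), and 0.08 for Cyp21a1 (SE 0.11). The signs of Cyp17a1 and Cyp46a1 turned under other settings.

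Of the retinoid and vitamin D genes, Cyp2r1 was lower at an unadjusted p below 0.05. This gene, which makes the circulating form of vitamin D, read -0.40, -0.41, -1.20 and -1.10 in Control and -0.84, -0.73, -1.52 and -1.21 in Irf2AhcKO. On each slide both Irf2AhcKO arrays were below both Control arrays, while the groups overlapped across slides. The difference was -0.30 (SE 0.10, adjusted p = 0.335; -0.16 with normexp), and a second probe gave -0.54. Cyp27b1, the activating vitamin D hydroxylase, was well above background on 4 arrays and gave 0.63 on slide 1 and -0.84 on slide 2. Cyp26b1, which degrades retinoic acid, had a difference of 0.25 (SE 0.14, adjusted p = 0.503; 0.11 with normexp). The orphan Cyp20a1 had one of 0.33 (SE 0.15, adjusted p = 0.441; 0.18 with normexp).

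Of the 61 genes 18 differed between slides at an adjusted p below 0.05, against 35.5% of all features, and 15 of the 61 differed and were lower on slide 2 (24.6%; all features 23.5%). Without Control replicate 1 the count was 11. Cyp2d10 gave -0.46 and -0.55 on the slide 1 Control arrays and -1.77 and -1.79 on those of slide 2, and -0.53 and -0.57 against -1.96 and -1.88 in Irf2AhcKO. The slide difference was -1.32 (limma adjusted p = 8.08e-05) beside a group difference of -0.09. Cyp2a22 differed by -1.98 (adjusted p = 0.00451) and Cyp2d22 by -1.10 (adjusted p = 0.00749). As each slide held 2 arrays of either group, the slide stood as a term in the model.

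Genes that work with P450 enzymes were read from lists, 70 of 76 of them measured. None passed the adjusted threshold. At an unadjusted p below 0.05, 5 were lower (7.14%; all features 5.74%) and none was higher (all features 5.98%), and the median difference was -0.07. With normexp correction 11 were lower (all features 7.65%). Without Irf2AhcKO replicate 3 there were 5 higher. In that setting 3117 of all 25403 features had an unadjusted p below 0.05 in either direction, with 5.64% lower. Among the redox partners 1 of 11 measured genes was lower, the cytochrome b5 reductase Cyb5r3 at -0.16 (SE 0.07, adjusted p = 0.416). The haem-binding protein Pgrmc1 gave -0.18 (SE 0.08) and the central electron donor Por gave -0.01 (SE 0.09). None of the 12 genes of haem synthesis and breakdown was lower or higher, with the nearest to the threshold Cpox at -0.19 and Fech, which inserts the iron, at -0.16. Negative differences were found for 10 of the 11 redox partners and 10 of the 12 haem genes, against 50.5% of all features. Among measured features with a symbol 8358 of 15113 were negative. The mean over the redox partners lay between 1.72 and 1.79 in Control and between 1.60 and 1.71 in Irf2AhcKO.

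Of the 22 measured nuclear receptors and regulators of P450 genes 3 were lower (13.6%, all features 5.74%). Ppard, a fatty acid receptor, gave 1.43, 1.08, 1.63 and 1.44 in Control and 0.57, 0.33, 1.12 and 1.21 in Irf2AhcKO, a difference of -0.59 (SE 0.14, adjusted p = 0.219). Ppara, the receptor known to regulate Cyp4a genes, gave -0.40 (SE 0.11, adjusted p = 0.292), and Cebpa gave -0.42. Hnf4a, the nuclear receptor for which the HNF4 repeat is named, had a difference of -0.15, Nr1i2 one of -0.09 and Ahr one of -0.16. None of the 21 genes of sterol synthesis around Cyp51 was lower or higher. Of these 16 had positive differences, as had 12565 of all 25403 features, and the median of the list was 0.12. Fdps, which makes farnesyl diphosphate, gave 0.41 (SE 0.23) and Mvk, the mevalonate kinase, gave 0.15. Of the P450-related enzymes outside the Cyp symbols 4 of 6 were measured and 1 was lower. This was the epoxide hydrolase Ephx1, with -0.41 (SE 0.11, adjusted p = 0.285), while Ephx3 gave -0.09.

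Markers of mature enterocytes also had mostly negative differences. At an unadjusted p below 0.05, 7 of 14 enterocyte markers, all measured, were lower (50%, all features 5.74%). In the other direction 1 was higher (7.14%, all features 5.98%). For 4 markers Irf2AhcKO lay wholly below Control (all features 2.11%) and for 1 wholly above (all features 1.74%). The median difference of the 14 markers was -0.55. Their mean signal lay between 0.49 and 1.21 in Control and between 0.02 and 0.41 in Irf2AhcKO. The sucrase gene Sis read 10.42 on Control replicate 4, while the remaining Control arrays ranged from -1.74 to -0.79. Without Sis the list mean was 0.50 to 0.98 in Control and 0.22 to 0.56 in Irf2AhcKO, and the ranges overlapped. The median difference of the 13 markers left was -0.50. The part of enterocyte RNA in the P450 differences was not tested. Other lists had medians of -0.16 for goblet cells, 0.16 for Paneth cells, 0.28 for enteroendocrine cells, 0.72 for tuft cells (4 of 6 measured), 0.36 for T cells, 0.02 for B cells, -0.01 for myeloid cells, -0.25 for mesenchymal cells and -0.0013 for endothelial cells. Markers of cells outside the epithelium were read in part. Well above background on all 8 arrays were 5 of 7 T cell markers (Cd3e, Gzma, Gzmb, Nkg7 and Lck), 4 of 6 myeloid markers (among them Csf1r), 2 of 4 endothelial markers (Kdr and Egfl7), 1 of 5 B cell markers (Cd79a) and 1 of 6 mesenchymal markers (Col1a2). Cd3g, Ms4a1, Jchain, Col1a1, Dcn, Pdgfra and Cdh5 were so on no array. The part of these cells in the P450 differences was not tested either. The general epithelial list had a median of -0.16 and the stem cell list one of -0.11.

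**Figure D5:**
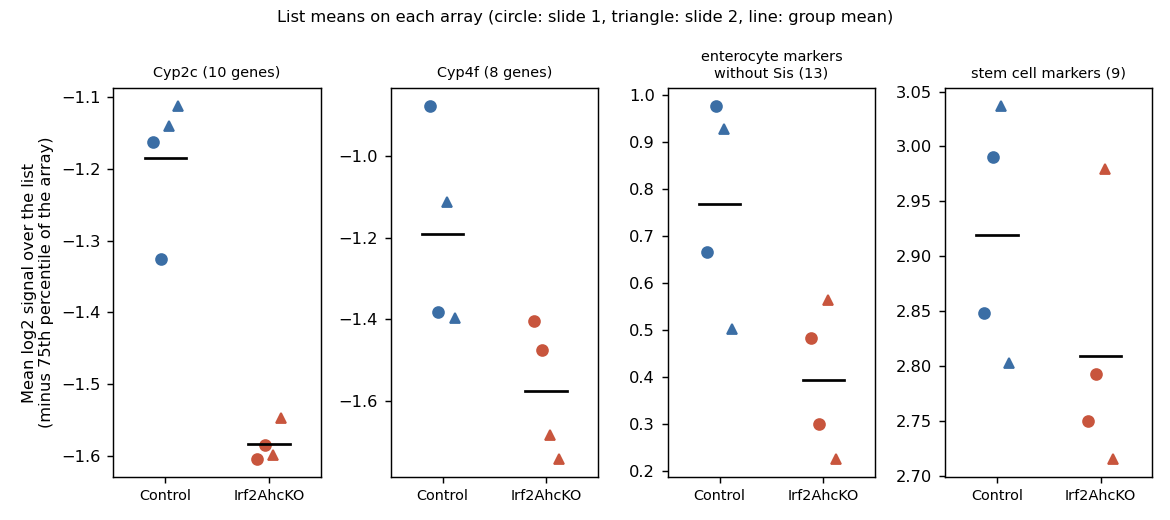
Mean log2 signal on each array over the 10 measured Cyp2c genes, the 8 measured Cyp4f genes, 13 enterocyte markers without Sis and 9 stem cell markers (circles slide 1, triangles slide 2, lines group means). The Cyp2c means of Control lie between -1.33 and -1.11 and those of Irf2AhcKO between -1.60 and -1.55. The enterocyte means without Sis overlap, as do the stem cell means. With Sis, the enterocyte means lie between 0.49 and 1.21 in Control and between 0.02 and 0.41 in Irf2AhcKO, without overlap.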

How the data were processed

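Total RNA of sorted Lgr5-high intestinal stem cells, 4 Control and 4 Irf2AhcKO samples, was amplified, labelled with Cy3 and hybridised to 1-colour arrays, per the labels' protocols. Such amplification can distort the levels of single transcripts. The scanner files deposited by the authors hold a background-subtracted, detrended intensity per spot (Agilent Feature Extraction 11.5.1.1, per the submitters' processing notes). In the authors' deposited table each array's intensities are those of the scanner file times a constant of 6.41 to 6.90, of unstated origin.

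Probes were named by accession through RefSeq (GRCm38.p6); 28331 of 55681 had a symbol. Because the array's grid was annotated on another build, the table gave only names and gene order. Replicate spots were averaged after outlier spots were dropped, and no spot was saturated. From log2 of the deposited intensity the 75th percentile of its array was subtracted. Probes well above background on at least 4 arrays were kept, 1 per gene by brightness. Groups were compared over all 25403 features by limma's moderated test (version 3.58.1, run under R 4.3.3, two-sided, lmFit then eBayes). The model held group and slide, and p-values were adjusted by Benjamini-Hochberg. The fit was tested on simulated data.

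Same-numbered arrays deviated together (r across genes 0.459, 0.491, 0.518 and 0.533), each above the 0.1 set as a rule for pairs. The main fit held no replicate term, and pairs entered only the alternative with the replicate block. With slide means removed r was 0.0465 on slide 1, below that 0.1, and 0.214 on slide 2. The labels name separate samples and give no shared litter or day.

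The genes, the lists and the rule for naming genes were chosen with earlier results of these data known, and the motifs with the promoters in view. The rule names the 16 genes of smallest p, the first of each numbered family, those without overlap between groups, the 4 of largest slide difference, the 4 of largest Control SD, outliers, and 2 genes of each partner list. Further genes, such as Cyp2c67, Por and Hnf4a, were named after their values were seen. Alternatives were normexp (offset 50, on the median signal, as the files hold no mean signal), quantile normalization, other filters on dim probes, no slide term, the replicate block, single slides, the mean of probes, the authors' table, and leaving out each array.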

Additional observations from a re-analysis of the deposited data

Results flagged for a closer look

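Among 122 groups of 4 arrays, 2 for each of the 61 genes, 6 had 1 array set far apart from the other 3 by Dixon's criterion. Chance alone gives such a gap in about 1 of 20 groups, or about 6.1 here. Cyp2e1 stood at 1.69 on Irf2AhcKO replicate 4, with the other 3 arrays between 2.46 and 2.50. Cyp2w1 stood at -1.21 on Irf2AhcKO replicate 3, with the others between -2.36 and -2.24. Cyp51 was at -1.92 on the same array, against -1.15 to -1.08 on the others. Cyp4a10 was at -1.14 on Irf2AhcKO replicate 1, against -1.77 to -1.71. In the Control group Cyp2c70 was at -1.87 on replicate 1, against -2.18 to -2.16, and Cyp2j6 at 0.37 on replicate 3, against -0.16 to -0.11.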

How the results depend on the processing

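None of the 61 P450 genes and none of the partner genes passed an adjusted p of 0.05 in the 18 alternatives; the lowest adjusted p of a P450 gene was 0.077 with probes well above background on all 8 arrays. The count of lower P450 genes at an unadjusted p below 0.05 was 16 (all features 5.74%). It was 8 with no slide term (all features 2.47%), 7 on slide 1 alone (4.40%) and 8 on slide 2 alone (2.32%). Leaving out 1 array gave 11 to 16, against 4.03% to 7.10% of all features. The count of higher genes was 2 of 61. With no filter on dim probes it was 4 of 95, where 3157 of 36717 features had such a p in either direction (4.29% lower). In the authors' deposited table it was 4, where 3036 of 25403 features had such a p (4.53% lower). It was 1 on slide 1 alone and 1 on slide 2 alone, where 2538 and 1336 of 25403 features had such a p. Leaving out 1 array gave 1 to 4: 1 without Control replicate 2 or 3 and 4 without Control replicate 4 or Irf2AhcKO replicate 3. The counts over all features without these arrays are given with the main result. The replicate block gave 17 lower P450 genes, 15 of them among the 16, and 2 higher, and no adjusted call changed; of the partner genes it gave 1 higher. Lower partner genes numbered 5, and 11 with normexp, 3 with no slide term, 3 on slide 1 alone and 2 on slide 2 alone, and 4 to 7 without 1 array. Higher partner genes numbered 0, and 1 of 75 with no filter and 2 on slide 1 alone. They numbered 0 to 5 without 1 array. The 5 came without Irf2AhcKO replicate 3, where 3117 of 25403 features had an unadjusted p below 0.05 in either direction. The count of P450 genes that differed between slides was 18, and 11 to 19 without 1 array, 11 being without Control replicate 1. The median difference of -0.10 lay between -0.21 (without Control replicate 2) and -0.069 without 1 array, with -0.18 without Irf2AhcKO replicate 1.

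With normexp 6 of the 61 signs turned, those of Cyp2a22, Cyp2a4, Cyp2c37, Cyp2d40, Cyp46a1 and Cyp4a12b, and 15 genes had opposite signs on the 2 slides. For genes taken by the naming rule the turned values were as follows, and the cause was not tested. Cyp17a1 gave 0.00598 on slide 1 alone and 0.013 in the authors' table, and -0.20 to 0.18 without 1 array. Cyp27b1 gave 0.63 on slide 1 alone and -0.64 to 0.13 without 1 array. Cyp2a22 gave 0.029 with normexp. Cyp2d22, at 0.03, gave -0.000551 with quantile normalization, -0.047 on slide 2 alone and -0.16 to 0.25 without 1 array. Cyp46a1 gave 0.084 with normexp, 0.019 on slide 2 alone, 0.024 in the authors' table and -0.12 to 0.12 without 1 array. Cyp4f41-ps gave -0.59 to 0.40 without 1 array. Signal over background limits the values of the 11 genes measured on 4 to 7 arrays, of which Cyp2d9 gave -1.02 and, with normexp, -0.10.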

Other observations

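Replicate 4 of each group differed from the other arrays in markers of sex. Xist, expressed from the inactive X chromosome, read 5.83 and 5.89 on these arrays and between -4.68 and -3.55 on the others, and the Y-linked Ddx3y read -6.35 and -6.46. Several mouse P450 genes are known to differ between the sexes in liver. On slide 2, the testosterone hydroxylase Cyp2d9 gave -3.88 on Control replicate 3 and -4.58 on replicate 4, and -5.74 and -5.11 in Irf2AhcKO. Cyp3a44 gave -3.88 and -3.44 in Control and -3.58 and -3.16 in Irf2AhcKO, on this slide higher on replicate 4 in both groups. On slide 1, however, Irf2AhcKO replicate 2 read -3.05, above replicate 4 of its group. Again on slide 2, Cyp2a4 gave -3.51 and -3.40 in Control, and -3.34 and -3.25 in Irf2AhcKO. Cyp4a12b gave -3.03 and -3.37, and -3.00 and -2.85. No test of these differences was run.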
